A study of Mus musculus with 12 samples.

Results

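All 6 hippocampal libraries of *Fmr1* KO mice were compared with all 6 libraries of WT mice, which together make up the 12 libraries of the series. The libraries were assigned to the genotypes by their labels, and the treatment that each animal had received was kept in the model as a term. The KO libraries comprised 3 from vehicle-treated mice (KO-Veh) and 3 from mice treated with Nutlin-3 (KO-Nut3), an inhibitor of the interaction of MDM2 with p53. The WT libraries comprised 3 of WT-Veh and 3 of WT-Nut3. Per the methods, the mice were of C57B/L6 background. In the paper KO mice are written as *Fmr1* -/y and WT mice as *Fmr1* +/y. The methods describe KO mice that also carry *Nestin-GFP*, in which the promoter of a neural stem and progenitor cell gene drives green fluorescent protein, and whether the sequenced mice carried this transgene is not given in the sources used here. Vehicle or Nutlin-3 at 10 mg/kg was given in 5 intraperitoneal injections beginning at 2 months of age, and the hippocampus was taken at 6 months. The KO was present in every cell from conception, so the contrast holds both the lasting absence of the protein and whatever developed from it. Poly(A) RNA of whole hippocampus was sequenced, and in such bulk tissue fewer cells of a type and less RNA per cell cannot be told apart. Reads on genes ranged from 17150820 to 20040482 per library.

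*Fmr1* encodes FMRP, an RNA-binding protein that associates with polyribosomes and is known above all as a repressor of translation at synapses. Its loss causes fragile X syndrome, and among the messenger RNAs it binds are many long transcripts for proteins of the synapse, the cytoskeleton and chromatin. Because FMRP acts mainly on translation, a comparison of RNA levels reads only what reached the abundance of transcripts. The genes are therefore taken in the order of *Fmr1* itself and its relatives, its target RNAs, the synaptic and channel genes, the pathways attached to it, and the markers of other cells that the dissected tissue could hold.

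Several libraries stood apart before any gene was compared. *Ttr*, the transthyretin gene that marks choroid plexus epithelium, reached 4215 CPM (reads of a gene scaled to a common library size) in WT-Nut3 RH9. Among the KO-Nut3 libraries it reached 3091 CPM in RH6, 4520 CPM in RH13 and 313.5 CPM in RH8. In the other 8 libraries it lay between 3.15 and 18.2 CPM. The 15 choroid plexus markers summed to 155 to 223 CPM in those 8 libraries and to 675, 5192, 6708 and 7176 CPM in the 4 high ones, of which 3 are KO and 1 is WT.

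In KO-Nut3 RH6, 6 transcription factor genes of thalamus and habenula summed to 153 CPM, against 13.8 to 57.4 CPM in the other 11 libraries. *Pou4f1*, a factor of the habenula, had 9.26 CPM there and at most 0.224 CPM elsewhere. The mean log2 CPM of the 9 markers of CA1 pyramidal neurons was 5.92 in the same library and 6.40 to 6.64 in the others. In WT-Veh RH15, 9 genes of salivary gland secretion summed to 310 CPM, and in the other libraries to at most 0.917 CPM. The salivary gland and transcription factor lists were written after the values had been seen. Multimapping reads were 3.07% to 3.22% of a library where the animal number was up to RH8 and 3.33% to 3.55% from RH9 on, and each of these blocks holds 3 KO and 3 WT libraries. What this number block stands for is not given in the labels.

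*Fmr1* was the 1 gene of 22592 tested that differed between the genotypes after adjustment (0.00443% of the genes). It lies on chromosome X from 68678541 to 68717963 (GRCm38) and was lower in KO. In the 6 KO libraries *Fmr1* had between 28.5 and 37.3 CPM with a median of 32.6 CPM. In the 6 WT libraries it had between 74.0 and 79.5 CPM with a median of 76.5 CPM. No KO library came near a WT library, and the lowest KO value belonged to KO-Nut3 RH8 and the highest to KO-Veh RH16. The means were 32.9 ± 3.24 CPM in KO and 76.7 ± 2.16 CPM in WT (SD, n = 6 each), so that KO libraries kept 42.9% of the WT level. On the log2 scale KO minus WT was -1.22 (SE 0.0555, edgeR adjusted *P*-value 1.71e-08).

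The difference in *Fmr1* was -1.18 on the log2 scale between the vehicle groups and -1.26 between the Nutlin-3 groups. It was -1.30 in the libraries up to RH8 and -1.12 in those from RH9, and it lay between -1.26 and -1.19 when each library was left out in turn. *Fmr1* passed the threshold in all 29 alternative fits. Counts per gene do not show which exons the remaining reads came from, so the level in KO libraries is that of transcript reads and not of a functional message. The levels accord each of the 12 libraries with its genotype label. A small RNA and a miscellaneous RNA gene overlap *Fmr1* in the annotation, the latter on the same strand.

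**Figure D1:**
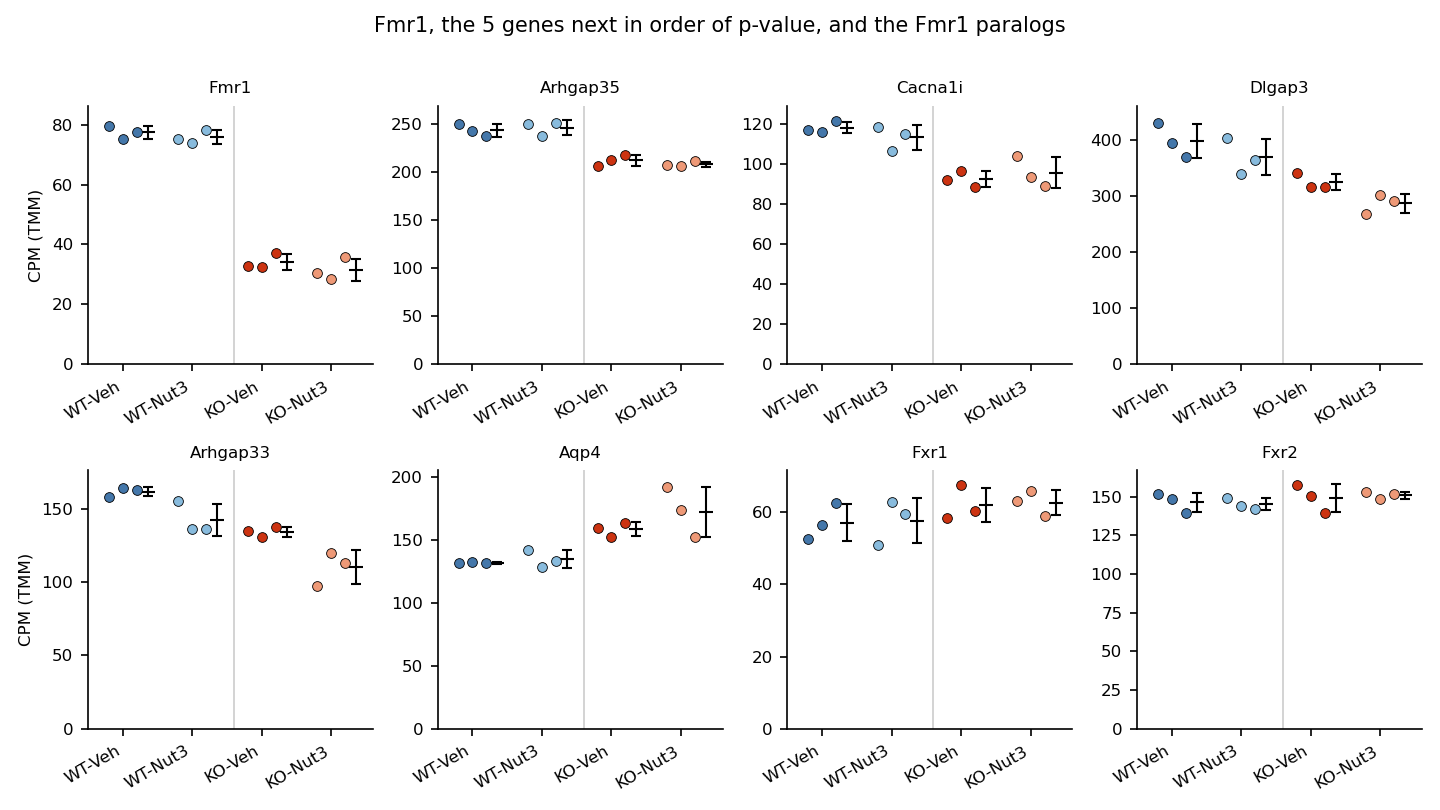
CPM of 8 genes (vertical axes, from 0) in each of the 12 libraries, by group. Each point is 1 library, and the bar beside each group is its mean ± SD (n = 3). *Fmr1* stands at 28.5 to 37.3 CPM in KO and 74.0 to 79.5 CPM in WT, whereas the paralogs *Fxr1* and *Fxr2* overlap between the genotypes.

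The autosomal paralogs encode proteins of the same family that bind RNA and one another. *Fxr1* had 58.4 to 67.5 CPM in KO (median 61.7) and 50.9 to 62.8 CPM in WT (median 58.0), a log2 fold change of 0.12 (SE 0.0602, edgeR adjusted *P*-value 0.652). *Fxr2* had 140 to 157 CPM in KO (median 151) and 140 to 152 CPM in WT (median 146), a log2 fold change of 0.04 (SE 0.0374, edgeR adjusted *P*-value 0.831). For both genes the libraries of the genotypes overlapped.

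The list of FMRP family and partners had 14 members, of which *Fmr1* passed. At an unadjusted *P*-value under 0.05, which 4.36% of all genes met with lower and 3.8% with higher values in KO, 2 members were lower and 2 were higher. The other lower member was *Cyfip2* (log2 fold change -0.15), whose protein binds FMRP and belongs to the complex that regulates actin. *Cyfip2* had 841 to 993 CPM in KO (median 931) and 944 to 1103 CPM in WT (median 1033). The higher members were *Nufip2* (0.17), which encodes an FMRP-interacting protein, and *Mov10* (0.15), which encodes an RNA helicase known to associate with FMRP. None of these 3 passed the adjustment, with adjusted *P*-values from 0.417 to 0.551 in edgeR.

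Below *Fmr1*, 5 genes had adjusted *P*-values between 0.0650 and 0.0737 in edgeR, and none passed. Their log2 differences were between 0.22 and 0.33 in size. *Arhgap35*, which encodes p190A, a protein that switches off the GTPase RhoA, (chromosome 7, 16493719 to 16614993) had 206 to 218 CPM in KO (median 209) and 238 to 251 CPM in WT (median 247). Every KO library lay below every WT library. *Cacna1i*, which encodes the T-type calcium channel Cav3.3 (chromosome 15, 80287238 to 80398279), had 88.2 to 104 CPM in KO (median 92.7) and 106 to 121 CPM in WT (median 116), again without overlap.

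*Dlgap3*, which encodes the postsynaptic scaffold SAPAP3 (chromosome 4, 127169204 to 127237022), had 268 to 341 CPM in KO (median 308) and 339.7 to 430 CPM in WT (median 381), and KO-Veh RH7 (340.6 CPM) overlapped WT-Nut3 RH9 (339.7 CPM). *Arhgap33*, which encodes a GTPase-activating protein of neurons (chromosome 7, 30522226 to 30535060), had 97.2 to 138 CPM in KO (median 126) and 136 to 164 CPM in WT (median 157), with overlap at the edge. It was named because of its place in the order. *Aqp4*, which encodes the water channel of astrocyte endfeet, had 152 to 192 CPM in KO (median 161) and 129 to 142 CPM in WT (median 132), and every KO library lay above every WT library. The 5 log2 fold changes were -0.22 for *Arhgap35* (SE 0.0329), -0.30 for *Cacna1i* (0.0458), -0.33 for *Dlgap3* (0.0519), -0.32 for *Arhgap33* (0.0518) and 0.31 for *Aqp4* (0.0506).

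These 5 genes were close enough to the threshold that their call changed with the test, the terms of the model and the libraries. All 5 passed with robust dispersion estimates and with DESeq2. *Arhgap35* passed with limma-voom (adjusted *P*-value 0.0483) and, like *Cacna1i*, without a treatment term (0.0338 each in edgeR). When the number block entered the model, 4 of the 5 passed in edgeR, with adjusted *P*-values of 0.0190 for *Aqp4*, 0.0196 for *Cacna1i* and *Dlgap3* and 0.0206 for *Arhgap35*. With 1 library left out, the count of genes passing was 10 without KO-Nut3 RH6, 2 without WT-Nut3 RH9, 2 without KO-Nut3 RH13, and 1 in the other 9 fits. *Arhgap35* lay at -0.27 in the libraries up to RH8 and at -0.18 in those from RH9, and *Cacna1i* at -0.30 and -0.35.

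The libraries of the genotypes did not overlap for 121 genes, 81 of them lower in KO (0.359% of the genes) and 40 higher (0.177%). Apart from *Fmr1*, the 10 lower genes with the smallest *P*-values and a mean of at least 1 CPM were *Arhgap35*, *Cacna1i*, *Serpina3n*, *Pkp4*, *Sec1*, *Asic2*, *Zfpm1*, *Shank1*, *Rreb1* and *Ntn5*. *Serpina3n*, a serine protease inhibitor known as a marker of reactive astrocytes, had 25.6 to 35.5 CPM in KO (median 33.2) and 39.7 to 52.3 CPM in WT (median 43.9), a log2 fold change of -0.47. *Shank1*, a scaffold of the postsynaptic density, had 624.7 to 717 CPM in KO (median 685) and 746 to 883 CPM in WT (median 805), a log2 fold change of -0.26. *Rreb1*, a zinc finger transcription factor, had 80.7 to 139 CPM in KO (median 122) and 150 to 174 CPM in WT (median 163), a log2 fold change of -0.46, and its lowest value belonged to KO-Nut3 RH6.

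*Pkp4*, a plakophilin of cell junctions, differed by -0.23, *Asic2*, an acid-sensing ion channel, by -0.24, and *Zfpm1*, a cofactor of GATA factors, by -0.35 on the log2 scale. *Sec1* (-0.74) and *Ntn5* (-0.82) overlap each other on opposite strands of chromosome 7. Reads were counted without regard to strand, so strand could not assign reads to 1 of these 2 genes where they overlap. *Sec1* had 2.55 to 3.95 CPM in KO and 5.04 to 7.05 CPM in WT, and *Ntn5* had 2.72 to 6.76 and 7.10 to 11.1 CPM. The adjusted *P*-values of the 8 genes of this group other than *Arhgap35* and *Cacna1i* lay between 0.112 and 0.181 in edgeR.

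The 10 higher genes chosen by the same rule were *Aqp4*, *Stat3*, *Chic1*, *Bzw1*, *Hspa1b*, *Gm42875*, *Psmc2*, *Pvr*, *St13* and *Gimap8*. *Stat3*, the transcription factor downstream of many cytokine receptors, had 55.6 to 60.3 CPM in KO (median 58.1) and 49.2 to 54.1 CPM in WT (median 52.6), a log2 fold change of 0.16. *Psmc2*, a subunit of the proteasome cap, had 79.5 to 87.0 CPM in KO (median 82.9) and 73.0 to 77.6 CPM in WT (median 75.4), a log2 fold change of 0.14. *St13*, a cochaperone of HSP70, had 154 to 167 CPM in KO (median 157) and 136 to 151 CPM in WT (median 143), also 0.14. *Chic1* differed by 0.19, *Bzw1*, a factor of translation initiation, by 0.15, and *Pvr*, a cell adhesion receptor, by 0.27. *Gm42875* (0.92) and *Gimap8* (0.73) were low, and *Gimap8* had at most 2.81 CPM in any library. Beyond *Aqp4* and *Stat3*, whose adjusted *P*-values were 0.0737 and 0.323 in edgeR, the 8 genes had values from 0.337 to 0.417.

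DESeq2 called 43 genes on the same counts and model, 36 lower and 7 higher in KO. It gave an adjusted *P*-value to 8134 genes and left 14458 without one. In edgeR 1843 genes (8.16%) had an unadjusted *P*-value under 0.05, and all 43 were among them. Without *Fmr1*, the log2 differences of the genes lower by DESeq2 were at most 0.60 in size, and the smallest difference called was 0.15. Among them were *Lrrc4c* (-0.24) and *Slitrk1* (-0.21), adhesion proteins of synapses, *Git1* (-0.22), a scaffold of the spine, *Cyp46a1* (-0.18), the cholesterol 24-hydroxylase of neurons, and *Tfrc* (-0.23), the transferrin receptor. Those called higher were *Aqp4*, *Chic1*, *Jmjd6*, *Bzw1*, *Dnajb1*, *Ccdc117* and *Stat3*. Of these genes, *Lrrc4c*, *Slitrk1*, *Git1*, *Cyp46a1*, *Tfrc*, *Jmjd6* and *Ccdc117* were named after their values had been seen.

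The FMRP target list held 50 messenger RNAs known to be bound by the protein, all of which were tested. At an unadjusted *P*-value under 0.05, 24 of the 50 were lower in KO and 0 were higher, whereas 4.36% of all genes were lower and 3.8% higher. None passed the adjustment in edgeR with treatment as a term, and 6 passed with DESeq2, all lower. In other edgeR fits 8 passed with all genes of at least 1 count, and 1 each with robust dispersion, with the number block in the model and without KO-Nut3 RH6, all lower. The median log2 fold change of the list was -0.12 and that of all genes 0.01, and 46 of the 50 values were negative. The differences were small, and the largest in size was that of *Dlgap3* (-0.33). The 50 genes summed to 27590 to 32165 CPM in KO and to 30640 to 35414 CPM in WT.

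Genes with many reads were more often lower than higher in KO. Of the 1535 genes in the top 10% by mean CPM, among those of at least 1 CPM, 12.7% were lower at an unadjusted *P*-value under 0.05 and 1.95% were higher, with a median of -0.03, and 42 of the 50 target genes are among them. Of the 376 genes in the top 10% both by mean CPM and by exon length, 19.4% were lower, and 25 of these genes are targets. The share of lower targets, 48%, stands beside these shares, and the part of level and length in it was not tested.

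*Shank3*, a scaffold of the postsynaptic density, had 264 to 368 CPM in KO (median 350) and 387 to 436 CPM in WT (median 405), a log2 fold change of -0.27. *Map1b*, a microtubule-associated protein and long-known FMRP target, had 1189 to 1251 CPM in KO (median 1217) and 1275 to 1449 CPM in WT (median 1400), a log2 fold change of -0.18. *Adgrb2*, an adhesion receptor coupled to G proteins, had 534 to 713 CPM in KO (median 688) and 717 to 875 CPM in WT (median 761), a log2 fold change of -0.22. With *Shank1*, these made up the 4 of 50 targets whose genotypes did not overlap, all lower in KO, as were 0.359% of all genes. *Tenm4*, a teneurin of synaptic adhesion, differed by -0.27, and *Map1a* by -0.22, both with overlap. The 4 targets with positive values were *Arc* (0.26), *Kcnt1* (0.11), *Pde2a* (0.07, at most 2.42 CPM in any library) and *Spen* (0.04), of which *Arc* differed by treatment, with 0.64 between the vehicle groups and -0.12 between the Nutlin-3 groups, a difference that did not pass the interaction test after adjustment.

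The vehicle and Nutlin-3 comparisons share no library. In each of them 46 of the 50 targets were negative, 42 were negative in both and 0 were positive in both. Of all genes, 5995 of 22592 were negative in both. The medians were -0.10 with vehicle and -0.13 with Nutlin-3, and 1 target had an unadjusted *P*-value under 0.05 for the interaction, against 4.17% of all genes (1.27% with a lower and 2.9% with a higher KO effect under Nutlin-3).

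**Figure D2:**
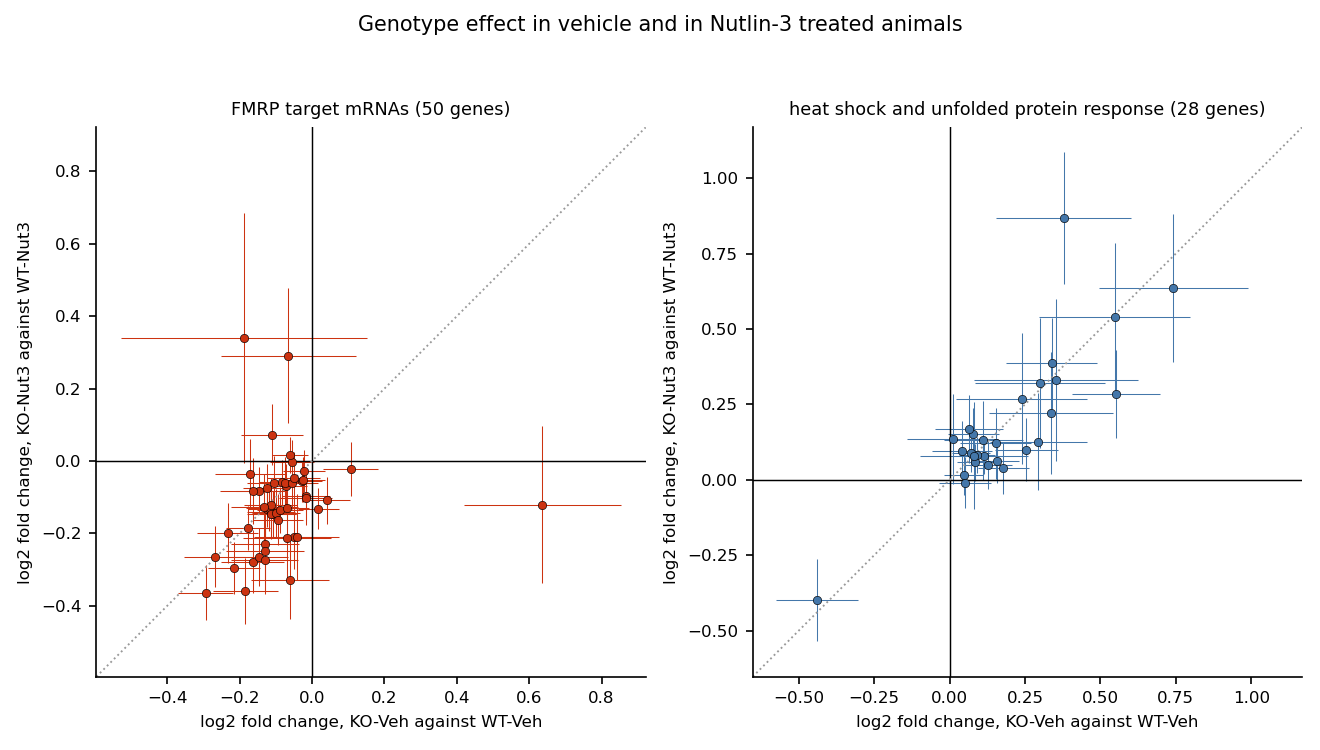
Log2 fold change of KO against WT in Nutlin-3 treated mice (vertical axis) against that in vehicle-treated mice (horizontal axis) for the 50 FMRP targets and the 28 genes of heat shock and the unfolded protein response. Each point is 1 gene with its standard errors, and the dotted line marks equal values. Of the targets, 42 are negative on both axes, and of the heat shock genes 26 are positive on both.

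The count of lower targets moved with the libraries and the terms of the model. It was 18 to 27 when each library was left out in turn. It was 19 in the libraries up to RH8, with a median of -0.15 and 2.91% of all genes lower, and 4 in those from RH9, with a median of -0.05 and 2.24% of all genes lower. Without the 4 libraries of high *Ttr*, which include all 3 of KO-Nut3 and so leave the genotype effect to the vehicle libraries, it was 11, with 3.71% of all genes lower, a median of -0.10 and 46 negative values. Once the choroid plexus score entered the model it was 13, with a median of -0.09 and 47 negative values, and once the ependyma score did, where 2.17% of all genes were lower, it was 6, with a median of -0.07 and 40 negative values. The mean log2 CPM of the list lay between 8.43 and 8.58 in KO (median 8.52) and between 8.54 and 8.68 in WT (median 8.63), so the genotypes overlapped, and the lowest value belonged to KO-Nut3 RH6.

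**Figure D3:**
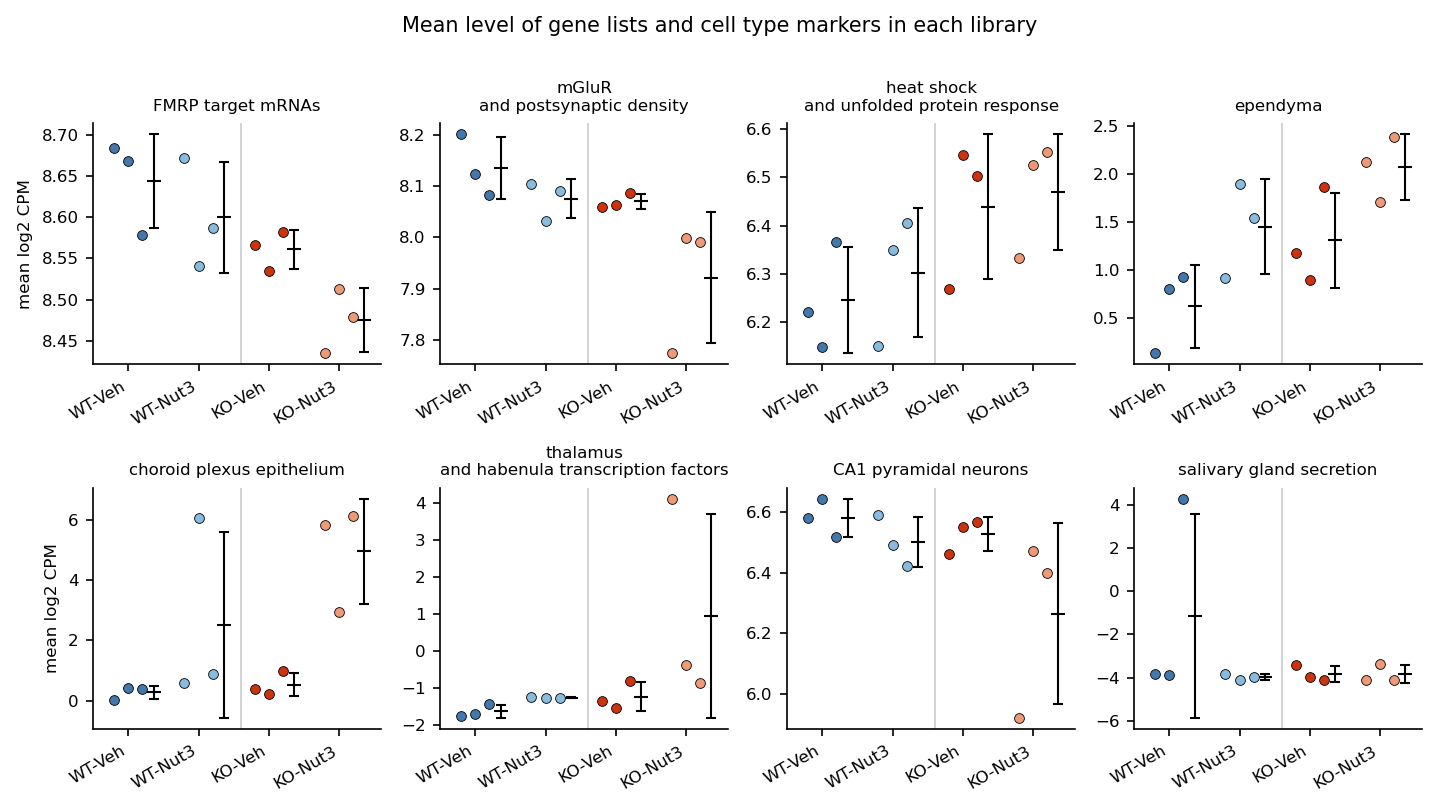
Mean log2 CPM (vertical axes, each with its own range) of 8 gene lists in the 12 libraries, by group. Each point is 1 library, and bars give the mean ± SD of a group (n = 3). The FMRP targets lie lower in KO-Nut3 than in the other groups, the 4 high libraries of the choroid plexus are WT-Nut3 RH9 and the KO-Nut3 libraries, and KO-Nut3 RH6 and WT-Veh RH15 stand alone in the thalamus and habenula and the salivary gland lists.

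The 25 genes of glutamate receptors of the mGluR type and of the postsynaptic density, through which FMRP is thought to be regulated at synapses, share 9 members with the target list. Of the 25, 8 were lower and 0 higher at an unadjusted *P*-value under 0.05, against 4.36% and 3.8% of all genes, and the median was -0.10. The median level of the list was 344 CPM, and of the genes in the top 10% by mean CPM 12.7% were lower. The part of level and length in the count was not tested. The 8 were *Dlgap3*, *Shank1*, *Shank3*, *Homer3* (-0.25), *Dlg4* (-0.13), *Shank2* (-0.17) and the NMDA receptor subunits *Grin2b* (-0.19) and *Grin2a* (-0.20). The receptor gene *Grm5* differed by -0.06 and was not among them. The count of lower genes was 5 to 10 with 1 library left out, the lowest being without WT-Nut3 RH14, 5 in the libraries up to RH8 (2.91% of all genes) and 3 in those from RH9 (2.24%), 3 with vehicle alone (4.12%) and 8 with Nutlin-3 alone (2.08%). It was 4 with either the choroid plexus or the ependyma score in the model, where 3.14% and 2.17% of all genes were lower and the medians were -0.07, with 20 negative values, and -0.08, with 18. The median was -0.06 without KO-Nut3 RH6, -0.13 up to RH8, -0.01 from RH9 with 16 of 25 values negative, -0.06 with vehicle alone and -0.17 with Nutlin-3 alone. KO-Nut3 RH6 had the lowest score, 7.77, against 7.99 to 8.20 in the other libraries. After adjustment 0 of the 25 genes passed in edgeR with treatment as a term and 3 with DESeq2. In other edgeR fits 3 passed with all genes of at least 1 count. With robust dispersion, with the number block in the model and without KO-Nut3 RH6 it was 1 each. All of these were lower.

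Potassium and HCN channels set the excitability of neurons, and FMRP is known to bind several of them and their messages. Of 24 genes 8 were lower and 0 higher at an unadjusted *P*-value under 0.05, with a median of -0.08. The median level of the list was 114 CPM. The top 10% of genes by mean CPM began at 147 CPM, and 12.7% of those were lower. The part of level and length in the count was not tested. Over all genes 4.36% were lower and 3.8% higher. *Kcnq5* had 64.2 to 99.7 CPM in KO (median 94.3) and 93.3 to 124 CPM in WT (median 114), a log2 fold change of -0.35. *Kcnq3* had 208 to 295 CPM in KO (median 266) and 278 to 324 CPM in WT (median 310), a log2 fold change of -0.23. Both encode subunits of the M current, and KO-Nut3 RH6 had the lowest value of each. *Kcnma1* and *Kcnc2* followed with -0.13 each. From RH9 onwards, where 2.24% of all genes were lower, 0 of the 24 were, with a median of -0.06 and 20 negative values. Up to RH8, where 2.91% of all genes were lower, 7 were, with a median of -0.11. There 21 values were negative, the number that was negative over all libraries. With the choroid plexus score in the model 3 were lower (3.14% of all genes), with a median of -0.05 and 21 negative values. With the ependyma score 1 was lower (2.17% of all genes), with a median of -0.01 and 14 negative values. With 1 library left out the count was 4 to 9, with 4 both without WT-Veh RH2 and without WT-Nut3 RH1.

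The heat shock and unfolded protein response genes leaned the other way. Of 28 genes, 9 were higher and 1 was lower at an unadjusted *P*-value under 0.05, and 27 of the 28 values were positive, with a median of 0.12. Over all genes 3.8% were higher and 4.36% lower. *Hspa1b*, an inducible HSP70, had 18.0 to 40.3 CPM in KO (median 22.2) and 13.5 to 17.7 CPM in WT (median 16.4), a log2 fold change of 0.69. *Dnajb1*, its HSP40 partner, had 50.1 to 74.2 CPM in KO (median 66.1) and 37.7 to 58.3 CPM in WT (median 50.6), a log2 fold change of 0.42. *Hspb1*, a small heat shock protein, had 6.76 to 17.7 CPM in KO (median 9.92) and 5.55 to 7.95 CPM in WT (median 7.40), a log2 fold change of 0.63. Only *Hspa1b* was free of overlap, and KO-Nut3 RH8 had the highest value of *Hspa1b* and of *Hspb1*.

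*Hspa1a* (0.54) is a near-identical copy of *Hspa1b*, and the counting may have divided or dropped their shared reads. *Pdia4* (0.36), a disulfide isomerase of the endoplasmic reticulum, *Chordc1* (0.18), *Dnaja1* (0.10), *Hspe1* (0.11) and *Hsp90aa1* (0.09) were the other higher genes. The lower gene was *Wfs1* (-0.42), a membrane protein of the endoplasmic reticulum that also marks CA1 neurons. It had 78.8 to 116 CPM in KO (median 90.4) and 100 to 142 CPM in WT (median 125). In edgeR with treatment as a term the adjusted *P*-values of the 10 genes lay between 0.330 and 0.612, and DESeq2 called *Dnajb1* and *Wfs1*. In other edgeR fits, 6 genes of the list passed as higher and 1 as lower with all genes of at least 1 count. *Wfs1* passed without KO-Nut3 RH6 (0.0189 in edgeR) and with vehicle alone (0.0478).

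The heat shock element to which HSF1 binds was sought in the RefSeq promoters (GRCm38.p6) from 250 bases before to 50 bases after the start, as the letters GAANNTTC, which read the same on both strands. Of the 28 genes 24 had a promoter in the table, and 8 of the 24 held the letters, as did 9.04% of the 27025 genes with a promoter. The list was written to hold heat shock genes, so this share is no test of the difference between the genotypes. *Dnajb1*, *Pdia4* and *Hsp90aa1*, which were higher in KO at an unadjusted *P*-value under 0.05, are not among the 8 genes with the letters. *Hsph1* (0.11) and *Hspd1* (0.07) are among them and did not reach that threshold. Stretches around the match are shown for genes that held the letters and were higher at that threshold. The 8 letters are in capitals, to let the shared word be seen. *Chordc1* also met this rule and is not printed, since its matches begin 4 bases before and 6 bases after the start.
Hspa1b: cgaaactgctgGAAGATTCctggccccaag
Hspa1a: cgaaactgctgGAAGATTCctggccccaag
Hspb1: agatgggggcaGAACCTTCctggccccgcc
Dnaja1: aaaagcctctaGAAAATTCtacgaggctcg
Hspe1: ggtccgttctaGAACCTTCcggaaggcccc

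The stretches of *Hspa1b* (chr17:34959324-34959353, minus strand) and *Hspa1a* (chr17:34972242-34972271, minus strand) are the same, and their match begins 104 bases before the start in each. That of *Hspb1* (chr5:135887811-135887840, plus strand) begins 97 bases before the start, and a further match begins 117 bases before. The matches of *Dnaja1* (chr4:40722333-40722362, plus strand) and *Hspe1* (chr1:55088053-55088082, plus strand) begin 124 and 84 bases before. The stretch of *Hspe1* is also the promoter of *Hspd1*, which runs the other way and had a log2 fold change of 0.07. A match of letters does not show binding.

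The positive values of the heat shock list were found with either treatment, with medians of 0.14 for vehicle and 0.12 for Nutlin-3, and 26 of the 28 genes were positive in both. The number of higher genes at an unadjusted *P*-value under 0.05 was 7 up to RH8, with 2.99% of all genes higher, 11 from RH9 (1.52%), 8 with vehicle alone (3.08%) and 3 with Nutlin-3 alone (2.80%). It ranged from 5 to 15 with each library left out. It was 5 without WT-Veh RH5, without WT-Nut3 RH1 or without KO-Veh RH10, 14 without KO-Nut3 RH6 and 15 without KO-Veh RH7. With the ependyma score in the model it was 5, with a median of 0.07 and 6 negative values, and 1.87% of all genes were higher. The score of KO-Veh RH7 was 6.27 and that of the other KO libraries 6.33 to 6.55, and the WT libraries lay between 6.15 and 6.41. Within WT, the libraries from RH9 had 6.35 to 6.41 and those up to RH8 6.15 to 6.22. With the number block as a term the count was 15, and 4.42% of all genes were higher.

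**Figure D4:**
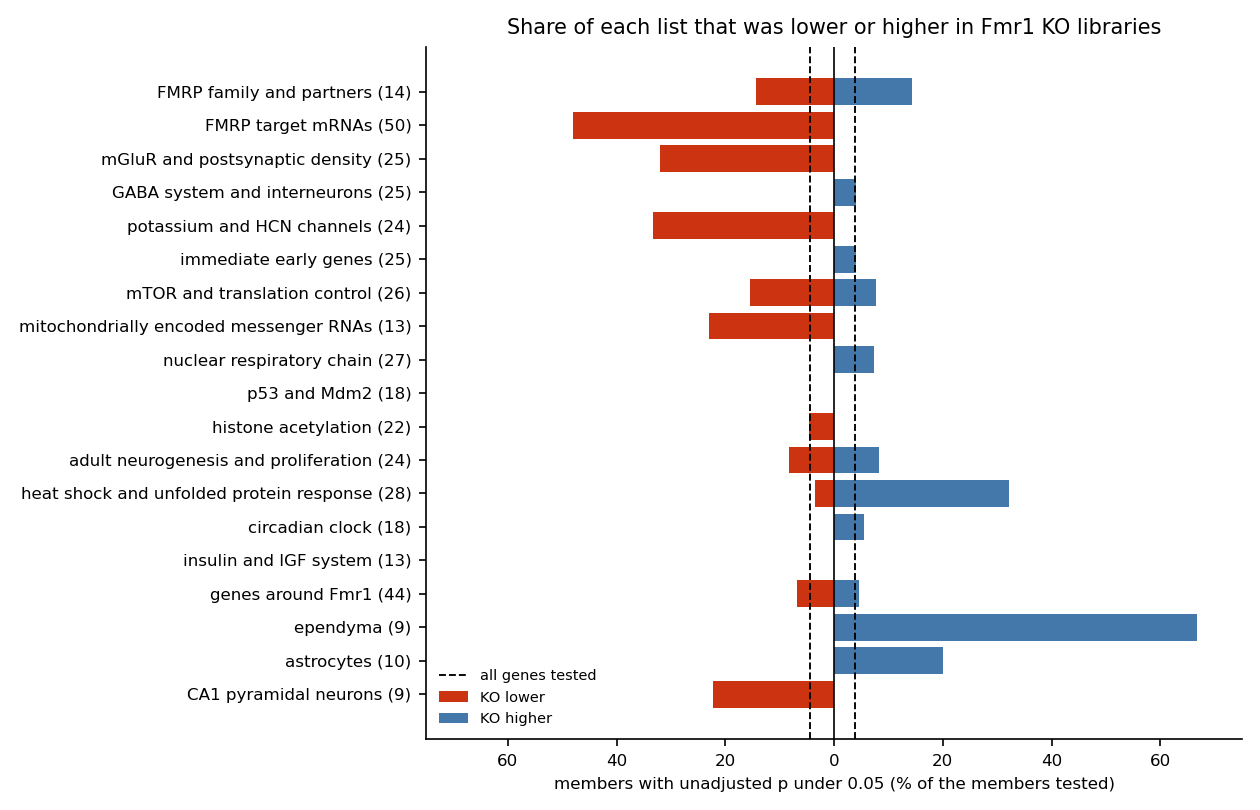
Share of the tested members of each list with an unadjusted *P*-value under 0.05 (horizontal axis, %), lower in KO to the left and higher to the right, with the number of members in parentheses. The dashed lines mark the shares over all genes tested, 4.36% and 3.8%. Among the lists that extend to the left are the FMRP targets, postsynaptic genes, potassium and HCN channels, mitochondrial messenger RNAs and CA1 markers. Ependyma and heat shock genes are among those that extend to the right.

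The mTOR pathway and translation control were covered by 26 genes, 4 of them lower and 2 higher at an unadjusted *P*-value under 0.05, with a median of -0.01. Among the lower genes were *Tsc2* (-0.10), which restrains the pathway, the kinase gene *Mtor* (-0.11) and *Agap2* (-0.18), whose product activates PI3 kinase, and these 3 are also on the target list. The higher genes were *Mknk2* (0.26) and *Eif4ebp2* (0.09), a kinase of the initiation factor eIF4E and a protein that holds it. Over all genes 4.36% were lower and 3.8% higher. With 1 library left out 2 to 4 genes of the list were lower and 1 to 3 higher. With the choroid plexus or the ependyma score in the model 1 was lower, and from RH9 0 were. Of the 13 messenger RNAs of the mitochondrial genome, 8 had negative and 5 had positive values. At an unadjusted *P*-value under 0.05, 3 subunits of complex I were lower, *mt-Nd5* (-0.22), *mt-Nd6* (-0.17) and *mt-Nd1* (-0.14), and 0 genes were higher. With Nutlin-3 alone or from RH9 the count of lower genes was 0. Of the 27 genes of the nuclear respiratory chain, 25 had positive values with a median of 0.04, and *Uqcrfs1* (0.09) and *Cox5a* (0.12) were higher at an unadjusted *P*-value under 0.05. That median was 0.018 without KO-Veh RH10, 0.021 without WT-Nut3 RH1 and 0.023 without KO-Nut3 RH13. With the choroid plexus score in the model it was 0.012 with 8 negative values, and with the ependyma score 0.014 with 10.

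For p53 and Mdm2, the pathway that Nutlin-3 targets, 0 of 18 genes had an unadjusted *P*-value under 0.05. At that threshold 4.36% of all genes were lower and 3.8% higher. *Mdm2* had 52.0 to 62.6 CPM in KO (median 61.3) and 52.4 to 65.6 CPM in WT (median 56.6), and *Cdkn1a*, a p53 target, 4.67 to 7.54 and 4.24 to 9.06 CPM. For the insulin and IGF system it was 0 of 13. In histone acetylation 1 of 22 genes was lower, the acetyltransferase *Kat2a* (-0.11), whereas *Ep300* and *Hdac1* differed by -0.05 each. In the GABA system 1 of 25 was higher, *Gad2* (0.25), which makes GABA. It had a median of 165 CPM in KO and 153 CPM in WT, and 275 CPM in its highest library, KO-Nut3 RH6, without which its log2 fold change was 0.11. The list had a median of -0.03. Without KO-Nut3 RH6 4 of its genes were higher and 2 lower, without KO-Nut3 RH8 or WT-Veh RH5 3 were higher and 1 lower, and without KO-Veh RH16 or WT-Nut3 RH14 0 were higher. Among 25 immediate early and 18 circadian clock genes 1 was higher in each, and it was the same gene, *Per1* (0.19).

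Adult neurogenesis and proliferation was covered by 24 genes, of which 2 were lower and 2 higher at an unadjusted *P*-value under 0.05, with a median of 0.00. Over all genes 4.36% were lower and 3.8% higher. *Neurog2*, a proneural factor of intermediate progenitors, had 0.229 to 1.03 CPM in KO (median 0.584) and 0.927 to 1.89 CPM in WT (median 1.48), a log2 fold change of -1.29 (SE 0.321). *Eomes* (1.52), which marks intermediate progenitors as *Neurog2* does, and *Igfbpl1* (0.96), which marks newborn neurons, were higher. The adjusted *P*-values of these 3 genes lay between 0.417 and 0.604 in edgeR, and neurogenic cells are a small part of whole hippocampus. With 1 library left out, 2 to 3 genes of the list were lower and 0 to 2 higher at the unadjusted threshold.

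Around *Fmr1*, 168 genes of the annotation lie within 5 Mb, of which 44 had more than 20 counts and were tested. Apart from *Fmr1*, 2 were lower and 2 higher at an unadjusted *P*-value under 0.05, against 4.36% and 3.8% of all genes. The nearest tested neighbour with a mean above 1 CPM was *Aff2*, 682 kb away, with a log2 fold change of 0.12 (SE 0.10). *Cd99l2*, 2742 kb away, had 74.9 to 98.6 CPM in KO (median 79.3) and 68.4 to 74.8 CPM in WT (median 70.2), a log2 fold change of 0.21 without overlap. *Zfp275* (0.20) was the other higher gene, and *Pnma3* (-0.20) and *Dusp9* (-1.16, at most 0.486 CPM on average in either genotype) were lower. None of these 4 passed, with adjusted *P*-values from 0.417 to 0.594 in edgeR.

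**Figure D5:**
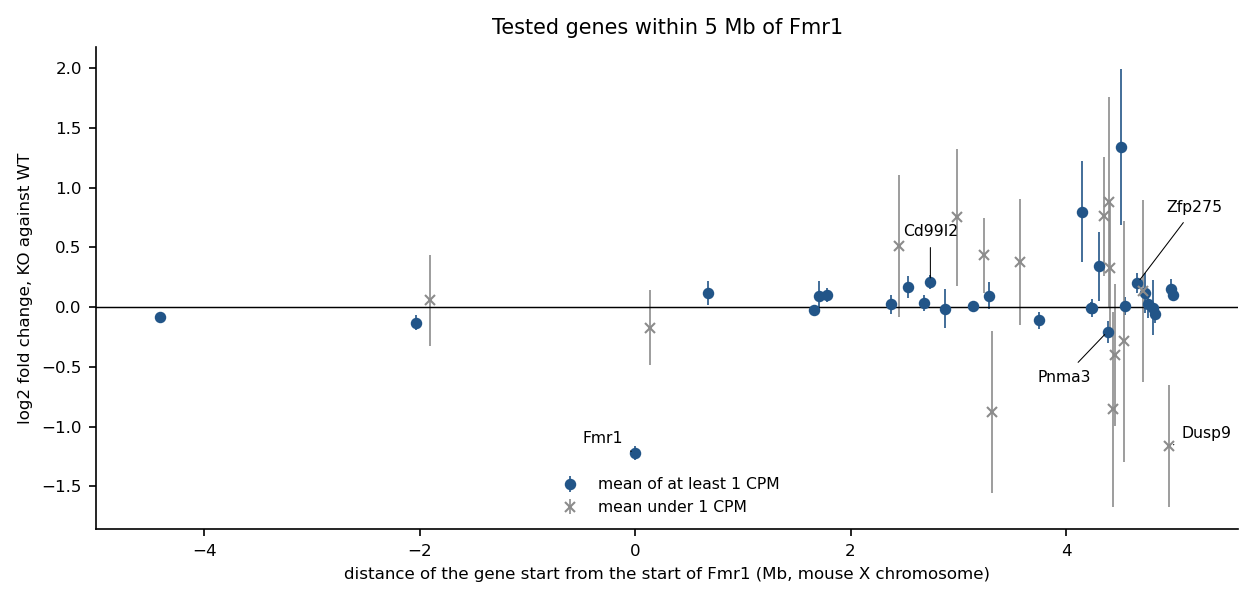
Log2 fold change of KO against WT with its standard error (vertical axis) for the 44 tested genes within 5 Mb of *Fmr1*, by the distance of their start from that of *Fmr1* (horizontal axis, Mb). Crosses are genes with a mean under 1 CPM. *Fmr1* stands at -1.22, and the other genes with a mean of at least 1 CPM and a standard error under 0.1 lie within 0.21 of 0.

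Markers of other cell types were read in the same way. The 10 listed markers of ependyma, the ciliated lining of the ventricles, included 9 that were tested, and 6 of the 9 were higher and 0 lower at an unadjusted *P*-value under 0.05, with a median of 0.63. Their most abundant gene, *Foxj1*, had 11.4 to 26.8 CPM in KO (median 19.6) and 8.24 to 23.7 CPM in WT (median 11.3). *Ccdc153* had 5.36 to 11.2 CPM in KO (median 8.49) and 2.39 to 6.45 CPM in WT (median 5.02), a log2 fold change of 0.77. The 9 genes summed to 26.4 to 61.8 CPM in KO and 15.9 to 50.1 CPM in WT, and no tested marker was at 0 in any library. Over all genes 3.8% were higher. The number of higher markers was 3 to 9 with 1 library left out, the lowest being without KO-Veh RH16. It was 6 with vehicle alone, with a median of 0.73 and 3.08% of all genes higher, and 1 with Nutlin-3 alone, with a median of 0.51, all 9 values positive and 2.80% of all genes higher. The part of ependyma in the values of the target and channel lists was not tested beyond the fit with its score as a term.

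All 15 choroid plexus markers had positive values, with a median of 0.76, and 0 reached an unadjusted *P*-value under 0.05. In that fit, which also gave the counts of the lists below, 4.36% of all genes were lower and 3.8% higher. When WT-Nut3 RH9 was left out the median was 3.34 and 14 of the 15 were higher at that threshold, as were 4.85% of all genes. The result also moved with the settings. In limma-voom 6 were higher (3.85% of all genes) with a median of 2.02. Among all genes with at least 1 count 12 were higher (3.8% of that set) with a median of 0.76. In the libraries up to RH8 7 were higher (2.99% of all genes) with a median of 3.01. With vehicle alone the median was 0.19, and 4 of the 15 values were negative. With the ependyma score in the model all 15 values were negative, with a median of -1.23 and 2 lower (2.17% of all genes). The median was 0.33 without WT-Nut3 RH1, 0.34 without WT-Nut3 RH14 and 0.35 without KO-Nut3 RH13. Of 14 fibroblast markers 0 reached an unadjusted *P*-value under 0.05, with a median of 0.32. That median was -0.08 without KO-Nut3 RH8 and 0.08 without WT-Nut3 RH14. Without WT-Veh RH5 it was 0.72 with 6 of the 14 higher (3.6% of all genes). Of 10 astrocyte markers *Aqp4* and *Gfap* (0.18) were higher, and the list had a median of 0.01. The glutamate transporter *Slc1a2*, the most abundant astrocyte marker per length, differed by -0.06. Of 9 CA1 markers 2 were lower, *Wfs1* and *Mpped1* (-0.18), with a median of -0.12. Their score was 5.92 in KO-Nut3 RH6 and 6.40 to 6.64 in the other libraries. Without KO-Nut3 RH6 the median was -0.03, with 2 lower (5.14% of all genes). The count of lower genes was 1 without WT-Veh RH5, WT-Veh RH15 or WT-Nut3 RH1. With vehicle alone the median was -0.03 and with Nutlin-3 alone -0.28. Of 12 thalamus markers 2 were higher, *Zic1* (1.14) and *Prkcd* (0.40), with a median of 0.17. The score of the list was 4.38 in KO-Nut3 RH6 and at most 3.32 elsewhere. Without KO-Nut3 RH6 the median was -0.05 with 7 of 12 values negative and 1 higher (3.74% of all genes), and without KO-Veh RH16 0 were higher. Of 12 neocortex markers *Foxp2* (1.37) was higher and *Lamp5* (-0.19) lower. *Foxp2* had 16.97 CPM in KO-Nut3 RH6 and at most 3.67 CPM elsewhere.

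Oligodendrocyte, microglia and dentate granule neuron markers had medians of 0.09, -0.0017 and -0.01, with 0, 1 and 2 members at an unadjusted *P*-value under 0.05. At that threshold 4.36% of all genes were lower and 3.8% higher. The oligodendrocyte median was 0.029 without KO-Nut3 RH6 or without WT-Veh RH2, and -0.10 from RH9 with 10 of 12 values negative. With 1 library left out, the microglia median lay between -0.06 and 0.02 and the dentate granule neuron median between -0.07 and 0.05. Of 10 endothelial markers *Cldn5* (-0.29), a tight junction protein, was lower, of 10 mural cell markers *Cspg4* (-0.21), of 8 markers of oligodendrocyte precursors *Gpr17* (-0.16), and of 11 markers of CA2 and CA3 neurons *Grik4* (-0.21) and *Spock1* (-0.17). Of 9 mossy cell markers *Drd2* (0.59), a dopamine receptor, was higher. For 7 blood cell, 10 border macrophage and 8 subiculum markers it was 0, with medians of 0.14, 0.15 and -0.06. The blood cell median was -0.02 without KO-Nut3 RH6, with all 7 values negative, and 0.04 without WT-Nut3 RH1. The border macrophage median was -0.0034 without WT-Nut3 RH1, 0.0034 without KO-Nut3 RH8 and 0.37 without WT-Veh RH5. *Ddx3y* (0.15) and *Kdm5d* (0.16), genes of the Y chromosome, were among the 6 sex-linked markers, were present in all 12 libraries, and were higher in KO at an unadjusted *P*-value under 0.05, with overlap of the genotypes. *Xist* had at most 0.859 CPM in any library.

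The genotype effect was also fitted within each treatment. Between KO-Veh and WT-Veh 1 gene passed (0.00443%), and between KO-Nut3 and WT-Nut3 1 gene passed, in both cases *Fmr1*. At an unadjusted *P*-value under 0.05 there were 1262 genes (5.59%) with vehicle, 3.05% lower and 2.54% higher, and 1456 (6.44%) with Nutlin-3, 2.95% lower and 3.5% higher. The interaction, which tests whether the genotype effect differed between the treatments, was passed by 0 genes (0.0%), with 942 at an unadjusted *P*-value under 0.05 (4.17%) and a smallest adjusted *P*-value of 0.126 in edgeR, and DESeq2 gave 1 gene. Without WT-Nut3 RH9, the WT library with high *Ttr*, 24 genes passed between the Nutlin-3 groups, 23 of them higher in KO.

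In several lists the median genotype difference had opposite signs under the 2 treatments, and those described here were chosen after their values had been seen. Of the 25 immediate early genes, which respond within minutes to neuronal activity, 1 was negative with vehicle and 22 were negative with Nutlin-3, with medians of 0.28 and -0.16. The mean log2 CPM of the list was 4.85, 5.25 and 5.64 in WT-Veh RH2, RH5 and RH15 and 5.397, 5.50 and 5.80 in KO-Veh RH7, RH10 and RH16, so that WT-Veh RH15 lay within the KO-Veh range. It was 5.33, 5.34 and 5.44 in WT-Nut3 RH1, RH9 and RH14 and 5.13, 5.43 and 4.95 in KO-Nut3 RH6, RH8 and RH13, with KO-Nut3 RH8 inside the WT-Nut3 range. WT-Veh RH2 and KO-Nut3 RH13 were the lowest of the 12 libraries. Over both treatments the median was 0.11 with 8 negative values up to RH8, and -0.14 with 23 negative values from RH9. Over all libraries it was 0.05, and it was -0.03 without WT-Veh RH2 or without KO-Veh RH16. At an unadjusted *P*-value under 0.05, 6 of the 25 genes met the interaction, as did 4.17% of all genes. *Npas4*, a transcription factor induced by calcium entry, differed by 0.50 with vehicle and -0.65 with Nutlin-3, and *Egr4* by 0.45 and -0.29. The 14 fibroblast markers had medians of -0.59 and 1.22, and 10 of them met the interaction at that threshold, among them the collagen genes *Col1a2* (-0.59 and 1.51) and *Col3a1* (-0.59 and 1.40). The 10 border macrophage markers had medians of -0.96 and 1.13, and 6 met it, among them *Cd74* (-1.60 and 1.19), the invariant chain of MHC class II. The 10 endothelial markers had medians of -0.15 and 0.23 and 5 met it, the 10 mural cell markers -0.31 and 0.10 and 2 met it, and the 7 blood cell markers -0.09 and 0.35 and 1 met it. None passed the adjustment. The summed fibroblast markers were highest in KO-Nut3 RH8 (307 CPM) and WT-Veh RH5 (256 CPM) and between 113 and 173 CPM elsewhere. Beyond the medians given above without each of these 2 libraries, their part in the values was not tested.

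*Gm21887* and *Col5a1*, named for the vehicle groups, did not pass over all 12 libraries in edgeR with treatment as a term. *Gm21887* was 6.93 with vehicle and -6.36 with Nutlin-3 as KO minus WT on the log2 scale, and -0.17 (SE 1.93) over both treatments. It lay between 9.96 and 13.8 CPM in KO-Veh, reached 18.4 CPM in WT-Nut3 RH14 and 28.9 CPM in WT-Nut3 RH9, and at most 0.333 CPM in the other 7 libraries. *Col5a1*, a fibrillar collagen, had 14.3 to 23.0 CPM in KO and 16.8 to 36.4 CPM in WT, a log2 fold change of -0.61 (adjusted *P*-value 0.417 in edgeR). *Col5a1* passed in 4 of the 29 alternative fits. Among them were DESeq2 (-0.60, adjusted *P*-value 0.0341) and edgeR with choroid plexus and fibroblast scores as terms (-0.70, 0.0299), both over all 12 libraries.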

How the data were processed

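The authors mapped the reads to mm10 with STAR and deposited raw counts of reads per gene for each library. The labels name a single-read layout on an older instrument than the paired-end runs of the methods, and the STAR version is not given in the sources used here. Counts of both strands together were used. Symbols, lengths and positions were taken from GENCODE M21 (GRCm38). The 22592 genes with more than 20 counts over the 12 libraries were fitted with treatment and genotype as terms in the quasi-likelihood test of edgeR 4.0.16 (R 4.3.3) after TMM normalization, which is two-sided, and a gene was called where its *P*-value after Benjamini-Hochberg correction was below 0.05. The standard error is the log2 fold change divided by the square root of *F*, and scores are mean log2 CPM with a prior count of 1. A fit of the 4 group means gave the effect within each treatment. A table of the whole series was not used. Alternatives were DESeq2 1.42.0, limma-voom (limma 3.58.1), other filters, terms and sets of libraries, and each library left out. The fits without the 4 libraries of high *Ttr* and with the ependyma score were added after the values were seen. The fit was tested on simulated counts. Nothing says that the animals were independent of litter or cage, so *P*-values measure the spread between these samples.

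The comparison, the 34 gene lists and the rules were chosen with earlier results of these data known. The genes named were *Fmr1* with its paralogs, genes past the threshold, up to 10 per direction whose genotypes do not overlap, up to 4 members per list by *P*-value with the most abundant, and 3 genes of the earlier vehicle comparison. Others were named after their values were seen. The values of some list members that the rule selects are not reported here.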

Additional observations from a re-analysis of the deposited data

Results flagged for a closer look

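Within each genotype, the highest or lowest of the 6 libraries was compared with its neighbour, and 8 of 122 such groups had a gap that was large for the range of the group (Dixon's test). Chance gives such a gap in about 1 in 20 groups. KO-Nut3 RH6 accounted for 5 of the 8. It had 25.6 CPM of *Serpina3n* and 80.7 CPM of *Rreb1*, each the lowest of KO. Its mean log2 CPM was 7.77 for the postsynaptic list and 5.92 for the CA1 markers, each the lowest of KO, and 4.38 for the thalamus markers, the highest.

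In WT, *Aqp4* had 142 CPM in WT-Nut3 RH1, the highest of its genotype and still below every KO library, and *Pvr* had 11.9 CPM in WT-Veh RH5. The choroid plexus score was 6.08 in WT-Nut3 RH9, against at most 0.894 in the other WT libraries.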

How the results depend on the processing

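*Fmr1* was called in all 29 alternatives, between -1.26 and -1.19 with 1 library left out. The 1 gene called between the genotypes became 43 with DESeq2, 2 with limma-voom, 239 with all genes of at least 1 count, 6 with robust dispersion, 3 without a treatment term, 4 with vehicle alone, 10 with the number block as a term, 6 with choroid plexus and fibroblast scores, 4 with the ependyma score, 14 in the libraries from RH9, and 1 to 10 with 1 library left out, the highest being without KO-Nut3 RH6. With the number block, both scores, the ependyma score and from RH9, respectively, 5, 4, 3 and 12 of the calls were genes with over 2 times the CPM in WT-Veh RH15 of any other library, such as the salivary genes *Dcpp1* and *Muc19*, with 99.45% and 99.2% of their reads there. The vehicle effect gave 5 genes with DESeq2, 6 with the number block as a term and 1 to 2 with 1 library left out (2 without WT-Nut3 RH1). The Nutlin-3 effect gave 7 with DESeq2, 2 with the choroid plexus score and 1 to 24, the highest being without WT-Nut3 RH9 (2 without WT-Nut3 RH1). The interaction gave 1 with DESeq2, 1 with the choroid plexus score and 0 to 1 (1 without WT-Nut3 RH1). The causes were not tested. For single named genes, 2996 of 3188 alternative values kept direction and side of the threshold, 79 passed it, and 113 changed sign. Of these 113, 1 was past the threshold in the alternative, *Gm21887* with vehicle alone (6.93, against -0.17 over all libraries, where it was not called). Of the list medians 980 moved by less than the spread and 35 by more. No paired analysis was possible because each animal number occurs in 1 group only.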

Other observations

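By chromosome, the genes whose KO and WT libraries do not overlap were most numerous on chromosome 7, which held 20 of the 121, or 1.11% of its 1803 tested genes, against 0.536% of all 22592. On chromosome 11 it was 16 of 1643 genes (0.974%), on chromosome 16 9 of 693 genes (1.30%), and on the X chromosome 6 of 712 genes (0.843%), *Fmr1* included. The 20 include *Arhgap35*, *Cic* (-0.14), *Nphs1* (-0.82), *Klk8* (-0.51), *Shank1*, *Sec1*, *Ntn5* and *Ntrk3* (-0.15), which were lower in KO, and *Pvr*, *Dmkn* (0.72) and *Hps5* (0.16), which were higher. These genes were named after their values had been seen, and the chromosome was singled out for its count.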
